A study of Rattus norvegicus with 9 samples.

Results

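The 10 genes described here, Wt1, Tcf21, Gata4, Gata6, Bnc1, Tbx18, Nr2f1, Nr2f2, Lhx9, and Emx2, encode transcription factors known from the mesothelium, the mesenchyme of visceral organs, and the urogenital ridge. They were picked by name for this known role, with earlier results of these data known, and all 10 were found among the 35362 genes of the count table, where 9 passed the filter on low counts and were tested. RNA of adipose-derived mesenchymal stem cells (ASCs) was sequenced to compare cells from 3 fat depots of male Sprague Dawley rats aged 6 weeks: subcutaneous fat of the groin (SASCs), perirenal fat (PASCs), and epididymal fat taken from the testis (EASCs). Cells had no treatment, were released with collagenase, grown on plastic, and used at passage 3, and each group holds 3 samples, numbered 1 to 3. By the protocol RNA was taken from single wells of culture plates, all sample titles carry 1 shared prefix whose meaning is not given, and the sources used here do not say which rats the wells of a group came from, so the p-values measure only the spread between these samples, which may be technical.

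Wt1 encodes a zinc finger protein needed for the kidney, the gonad, and the mesothelium, the cell sheet that lines the body cavities and covers the visceral organs. Tcf21 encodes a basic helix-loop-helix factor of visceral mesenchyme, Gata4 and Gata6 encode GATA zinc finger factors of the heart and the coelomic epithelium, and Bnc1 encodes basonuclin, a zinc finger protein of mesothelium and keratinocytes. Tbx18 is a T-box gene of the epicardium and ureter mesenchyme, Nr2f1 and Nr2f2 encode the orphan nuclear receptors COUP-TFI and COUP-TFII, Lhx9 is a LIM homeobox gene of the gonad, and Emx2 is a homeobox gene of the urogenital system and forebrain. Several of them, Wt1 and Tcf21 above all, are used as markers of visceral adipose progenitors.

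Promoter sequences of the 3 genes below are given because Wt1 and Tcf21 had the clearest depot differences and because another gene begins beside Nr2f1. The RefSeq promoter set of the GRCr8 build held 6 of the 10 genes (Wt1, Tcf21, Gata6, Bnc1, Tbx18, and Nr2f1), and each line shows the 250 bases before the annotated start, 5′ to 3′ on the strand of the gene. The windows are chr3:112021759-112022008 on the plus strand for Wt1, chr1:24520249-24520498 on the plus strand for Tcf21, and chr2:9785925-9786174 on the minus strand for Nr2f1. Capitals mark matches of E-boxes (CANNTG) or the GATA site AGATAA on either strand.
Wt1: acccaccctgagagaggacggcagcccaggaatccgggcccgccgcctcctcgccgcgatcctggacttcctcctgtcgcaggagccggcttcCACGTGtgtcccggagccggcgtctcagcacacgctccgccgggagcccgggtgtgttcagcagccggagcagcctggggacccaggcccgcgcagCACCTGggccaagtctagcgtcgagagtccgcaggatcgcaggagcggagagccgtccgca
Tcf21: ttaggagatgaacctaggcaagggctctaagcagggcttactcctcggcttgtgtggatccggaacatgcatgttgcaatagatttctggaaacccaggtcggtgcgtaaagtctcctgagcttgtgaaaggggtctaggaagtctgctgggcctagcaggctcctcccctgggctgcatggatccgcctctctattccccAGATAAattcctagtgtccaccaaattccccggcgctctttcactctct
Nr2f1: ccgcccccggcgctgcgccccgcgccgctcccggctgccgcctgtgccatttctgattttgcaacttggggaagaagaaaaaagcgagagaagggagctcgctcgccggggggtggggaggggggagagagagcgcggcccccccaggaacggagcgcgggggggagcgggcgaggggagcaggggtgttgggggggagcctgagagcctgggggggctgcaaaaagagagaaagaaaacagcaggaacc
The window of Wt1 held E-boxes at 157 to 152 and at 61 to 56 bases before the start, and 71.6% of its bases were G or C, beside a median of 51.2% over all 33469 promoters. The window of Tcf21 held 1 GATA site at 49 to 44 bases before the start and had a GC content of 53.6%. Of the 6 windows, 1 held AGATAA and 3 (Wt1, Bnc1, and Tbx18) held an E-box, beside 10.3% and 65.5% of all promoters. The other motifs searched on both strands, which are the nuclear receptor half-site AGGTCA, the WT1 site GNGTGGGNG, the T-box half-site AGGTGT, and the homeodomain site TAATTA, had no match in the 6 windows and were in 14.1%, 11.3%, 11.6%, and 4.86% of all promoters. A match is a description of letters, not a binding site.

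Total counts were 17591916 to 30299032 per sample, and genes of ribosomal RNA took 10.4% to 15.5% of them in SASCs, between 22.4% and 32.9% in PASCs, and between 15.9% and 40.3% in EASCs. Counts were scaled with edgeR's TMM factors, and levels are given as CPM, the usual unit of counts divided by library size, where 3 counts, taken as the floor, correspond to 0.104 to 0.159 CPM by sample. The cells carried RNA of all 11 mesenchymal progenitor markers listed for the label check, with Thy1 at 545, 777, and 405 CPM, Cd44 at 209, 253, and 236 CPM, and Pdgfra at 1543, 278, and 235 CPM in SASCs, PASCs, and EASCs, while Cd34 was low at 3.29, 0.581, and 3.90 CPM.

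In EASCs compared with SASCs, 5 of the 9 genes tested rose (Wt1, Tcf21, Gata4, Bnc1, and Nr2f1) and 1 fell (Emx2) when a gene had to differ more than 2-fold and reach an adjusted p below 0.05 in edgeR's quasi-likelihood test with Benjamini-Hochberg adjustment over all 14770 genes tested. By the same criteria 13.6% of all genes tested were higher and 14.2% lower. At an adjusted p under 0.05 with any fold change, 8 of the 9 genes passed, beside 69.7% of all genes. In PASCs compared with SASCs, 4 genes rose (Wt1, Tcf21, Gata4, and Bnc1) and 1 fell (Emx2), beside 12.0% of all genes higher and 14.9% lower, and 8 passed at any fold change, beside 69.2%. In EASCs compared with PASCs, 2 genes were higher (Tcf21 and Gata4) and 0 lower, beside 5.19% and 2.20% of all genes, and 7 passed at any fold change, beside 30.7%. The comparisons with SASCs share the same 3 SASCs samples. Tcf21, Gata4, and Bnc1 reached the filter level of 0.403 CPM in 0 SASCs samples and entered the test through the samples of visceral fat, and Gata4 reached it in 0 PASCs samples too and entered through EASCs alone, so the count of genes that rose is a description of the 10 genes and not evidence of a shared direction.

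Wt1 RNA was scarce in SASCs and abundant in both visceral groups. It lies at chr3:95133242-95180574 on the plus strand of the rn6 build, which the positions below also use. Wt1 was measured at 1.91, 1.83, and 2.00 CPM in SASCs 1 to 3, 35.4, 35.1, and 37.4 CPM in PASCs 1 to 3, and 54.97, 51.3, and 54.9 CPM in EASCs 1 to 3. The 3 groups did not overlap, SASCs had the lowest values, and even in SASCs the gene was above the floor with 41 to 55 counts per sample. Wt1 was 28.1-fold higher in EASCs (log2 fold change 4.81, SE 0.101, adjusted p = 1.36e-24) and 18.8-fold higher in PASCs (log2 fold change 4.23, SE 0.103, adjusted p = 4.69e-23) than in SASCs. Between both visceral groups the gap was small, with 1.49-fold more in EASCs (log2 fold change 0.58, SE 0.0691, adjusted p = 1.45e-07), which is under the fold threshold. In bulk RNA a smaller share of cells with Wt1 RNA and less Wt1 RNA per cell cannot be told apart, and the same holds for every gene below.

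Tcf21 (chr1:23906717-23909576, plus strand) was detected in the visceral groups and in none of the SASCs samples. Its counts were 0, 0, and 0 in SASCs 1 to 3, 19, 54, and 32 in PASCs 1 to 3, and 169, 187, and 163 in EASCs 1 to 3. The count of 0 in each SASCs library allows a level of up to 0.104 to 0.146 CPM, counting error only. With SASCs set to this floor in each library, Tcf21 was at least 58.0-fold higher in EASCs (adjusted p = 1.10e-13) and at least 11.7-fold higher in PASCs (adjusted p = 6.29e-09), and since the gene entered the test through the visceral groups these p-values are given as a description. Both bounds use the visceral means and leave out their error. Tcf21 also passed both thresholds between EASCs and PASCs. It was at 1.48 ± 0.672 CPM in PASCs and 7.32 ± 0.253 CPM in EASCs (mean ± SD, n = 3), a 4.97-fold difference (log2 fold change 2.31, SE 0.256, adjusted p = 7.53e-08) with no overlap of samples. The PASCs samples spread widely, from 0.727 CPM in sample 1 to 2.02 CPM in sample 2.

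Of the 2 GATA factors, Gata4 had very few counts, with more in both visceral groups than in SASCs, and Gata6 was expressed in every group and stayed under the fold threshold. Gata4 (chr15:46386703-46432914, minus strand) had counts of 0, 2, and 0 in SASCs 1 to 3, 9, 9, and 4 in PASCs 1 to 3, and 16, 27, and 22 in EASCs 1 to 3. All EASCs samples were above all PASCs samples, and the 2 counts of SASCs came from sample 2. The Gata4 level relative to SASCs was 33.4 times in EASCs (95% exact counting interval 8.87 to 281, adjusted p = 4.17e-06) and 11.2 times in PASCs (2.74 to 97.9, adjusted p = 0.00285). Without SASCs sample 2 the remaining SASCs samples were at 0. The mean was then 7.31 times their floor in EASCs and 2.37 times in PASCs, with the error of the visceral means left out. Gata4 was 2.98-fold higher in EASCs than in PASCs (log2 fold change 1.58, SE 0.515, adjusted p = 0.0203). Gata4 entered all 3 comparisons through the EASCs samples, the group where it is high, so these calls are a description and no support for a difference. The last one also depended on single libraries: without PASCs 1, 2, or 3 the log2 fold change was 1.68 with adjusted p = 0.0529, 1.66 with adjusted p = 0.0555, or 1.42 with adjusted p = 0.0772, and without EASCs 2 or 3 it was 1.43 with adjusted p = 0.104 or 1.53 with adjusted p = 0.0677.

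Gata6 (chr18:2416871-2446338, plus strand) was well expressed in all 9 samples, at 18.7, 17.5, and 18.7 CPM in SASCs 1 to 3, 20.7, 18.5, and 21.3 CPM in PASCs 1 to 3, and 29.1, 27.6, and 29.3 CPM in EASCs 1 to 3. EASCs stood above both other groups, while SASCs and PASCs overlapped. It was 1.56-fold higher in EASCs than in SASCs (log2 fold change 0.65, SE 0.0834, adjusted p = 1.23e-07) and 1.43-fold higher than in PASCs (log2 fold change 0.51, SE 0.0829, adjusted p = 1.91e-05), both under the fold threshold. With total counts in place of TMM the adjusted p was 0.206 against SASCs and 0.0760 against PASCs. PASCs and SASCs differed by 0.13 on the log2 scale (95% interval -0.04 to 0.31, adjusted p = 0.164), and this difference turned to -0.18 with total counts in place of TMM. Gata4 counts were 0% to 0.484% of those of Gata6 in SASCs, between 0.995% and 1.82% in PASCs, and between 2.30% and 3.97% in EASCs. The log2 ratio of Gata4 to Gata6, with 1 added to both counts, was 0.98 higher in EASCs than in PASCs (two-sided exact permutation test, p = 0.1, adjusted p = 0.1 over 6 ratio tests, the smallest p that 3 against 3 samples allow).

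**Figure D1:**
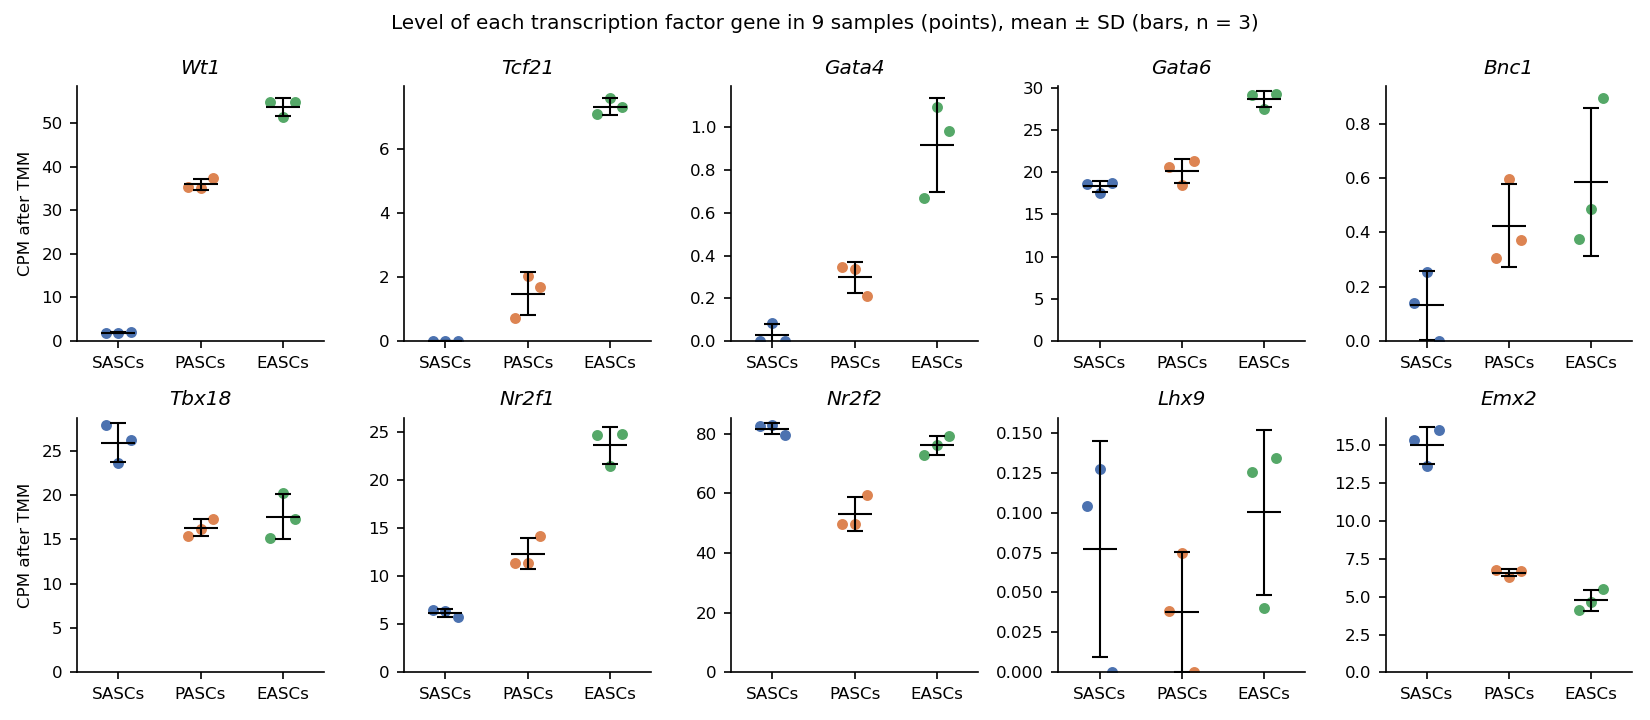
Level of each of the 10 transcription factor genes in CPM after TMM scaling (y axis, linear and starting at 0, own scale per panel) by group (x axis). Points are samples and black bars the mean ± SD of 3 samples. Wt1, Tcf21, and Nr2f1 were lowest in SASCs, highest in EASCs, and without overlap of groups, Emx2 had the opposite order, and Lhx9 stayed at or under 3 counts in every sample.

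The COUP-TF genes had different group orders. Nr2f1 (chr2:5569954-5579894, minus strand) was measured at 6.47, 6.37, and 5.76 CPM in SASCs 1 to 3, 11.4, 11.4, and 14.2 CPM in PASCs 1 to 3, and 24.7, 21.4, and 24.8 CPM in EASCs 1 to 3. The groups did not overlap, and PASCs were between SASCs and EASCs. Nr2f1 rose 3.80-fold in EASCs (log2 fold change 1.93, SE 0.113, adjusted p = 1.54e-14). In PASCs it was 1.98-fold higher (log2 fold change 0.98, SE 0.118, adjusted p = 3.51e-08), just under the fold threshold, which it passed without SASCs 1, PASCs 1, or PASCs 2 (log2 fold change 1.02 with adjusted p = 3.38e-07, 1.04 with adjusted p = 1.12e-07, or 1.04 with adjusted p = 8.96e-08). EASCs were 1.92-fold above PASCs (log2 fold change 0.94, SE 0.105, adjusted p = 4.43e-08), again just under the threshold, and past it without PASCs 3 (1.05 with adjusted p = 3.16e-08) or EASCs 2 (1.01 with adjusted p = 5.77e-08).

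Nr2f2 (chr1:131447671-131465745, minus strand) was at 82.7, 82.9, and 79.5 CPM in SASCs 1 to 3, 49.8, 49.6, and 59.6 CPM in PASCs 1 to 3, and 72.9, 76.2, and 79.2 CPM in EASCs 1 to 3. PASCs had the lowest values, and SASCs and EASCs lay close together, with SASCs 3 at 79.5 CPM just above EASCs 3 at 79.2 CPM. Nr2f2 was 1.55-fold lower in PASCs than in SASCs (log2 fold change -0.63, SE 0.0663, adjusted p = 2.99e-09) and 1.44-fold higher in EASCs than in PASCs (log2 fold change 0.53, SE 0.0665, adjusted p = 3.83e-07), both under the fold threshold. EASCs and SASCs differed by -0.10 on the log2 scale (95% interval -0.24 to 0.03, adjusted p = 0.162), and the adjusted p was 0.00416 with total counts in place of TMM. Within each sample, and with no correction for gene length, Nr2f1 counts were 7.25% to 7.82% of Nr2f2 counts in SASCs, between 23.0% and 23.9% in PASCs, and between 28.1% and 33.9% in EASCs, so the groups did not overlap. The log2 ratio of Nr2f1 to Nr2f2 was -3.71 ± 0.055 in SASCs, -2.10 ± 0.032 in PASCs, and -1.69 ± 0.134 in EASCs (mean ± SD, n = 3). Each pair of groups gave p = 0.1 in the two-sided exact permutation test (adjusted p = 0.1), the smallest value possible.

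Emx2 (chr1:280633938-280640948, plus strand), a urogenital factor, went the other way from Wt1. It was measured at 15.3, 13.6, and 16.01 CPM in SASCs 1 to 3, 6.77, 6.32, and 6.67 CPM in PASCs 1 to 3, and 4.10, 4.66, and 5.50 CPM in EASCs 1 to 3. SASCs had the highest values, PASCs were intermediate and close together, and EASCs were lowest, with no overlap. Emx2 fell 3.15-fold in EASCs (log2 fold change -1.66, SE 0.129, adjusted p = 7.37e-12) and 2.27-fold in PASCs (log2 fold change -1.18, SE 0.124, adjusted p = 2.75e-09). EASCs were 1.39-fold below PASCs (log2 fold change -0.47, SE 0.138, adjusted p = 0.0101), under the fold threshold, and by -0.38 with adjusted p = 0.0642 on the log2 scale without EASCs 1.

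Tbx18 (chr8:95359354-95387363, minus strand), a gene of epicardial and ureteral mesenchyme, was also highest in SASCs, at 28.0, 23.6, and 26.2 CPM in SASCs 1 to 3, 15.4, 16.2, and 17.3 CPM in PASCs 1 to 3, and 15.2, 20.3, and 17.3 CPM in EASCs 1 to 3. Samples of PASCs and EASCs overlapped, and all lay below those of SASCs. Tbx18 was 1.48-fold lower in EASCs (log2 fold change -0.56, SE 0.0996, adjusted p = 1.68e-05) and 1.59-fold lower in PASCs (log2 fold change -0.67, SE 0.1003, adjusted p = 1.30e-06) than in SASCs, both under the fold threshold. EASCs and PASCs differed by 0.11 on the log2 scale (95% interval -0.10 to 0.32, adjusted p = 0.458), and by -0.0058 without EASCs 2.

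Bnc1 and Lhx9 were near the limit of detection. Bnc1 (chr1:143793053-143818706, minus strand) had counts of 4, 6, and 0 in SASCs 1 to 3, 8, 16, and 7 in PASCs 1 to 3, and 9, 12, and 20 in EASCs 1 to 3. EASCs and PASCs overlapped, and SASCs 3 had no count. The log2 fold change of Bnc1 against SASCs was 2.05 in EASCs (SE 0.668, adjusted p = 0.00827) and 1.62 in PASCs (SE 0.695, adjusted p = 0.0411). Bnc1 reached the filter level in 1 PASCs and 2 EASCs samples and entered the test through them, so these calls are a description and no support for a difference. The change in EASCs was 1.63 with adjusted p = 0.0678 without EASCs 3 and 2.79 with adjusted p = 0.00624 without SASCs 2. The change in PASCs lost its call without SASCs 1 (1.63 with adjusted p = 0.0911), SASCs 3 (1.13 with adjusted p = 0.159), PASCs 2 (1.27 with adjusted p = 0.183), PASCs 3 (1.70 with adjusted p = 0.0562), or EASCs 2 (1.62 with adjusted p = 0.0522), and was 2.36 with adjusted p = 0.0230 without SASCs 2. Lhx9 (chr13:55854543-55879305, minus strand) had counts of 3, 3, and 0 in SASCs 1 to 3, 1, 2, and 0 in PASCs 1 to 3, and 3, 1, and 3 in EASCs 1 to 3, at or under the floor in every sample, and was not tested, so a depot difference was not detectable at this depth.

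**Figure D2:**
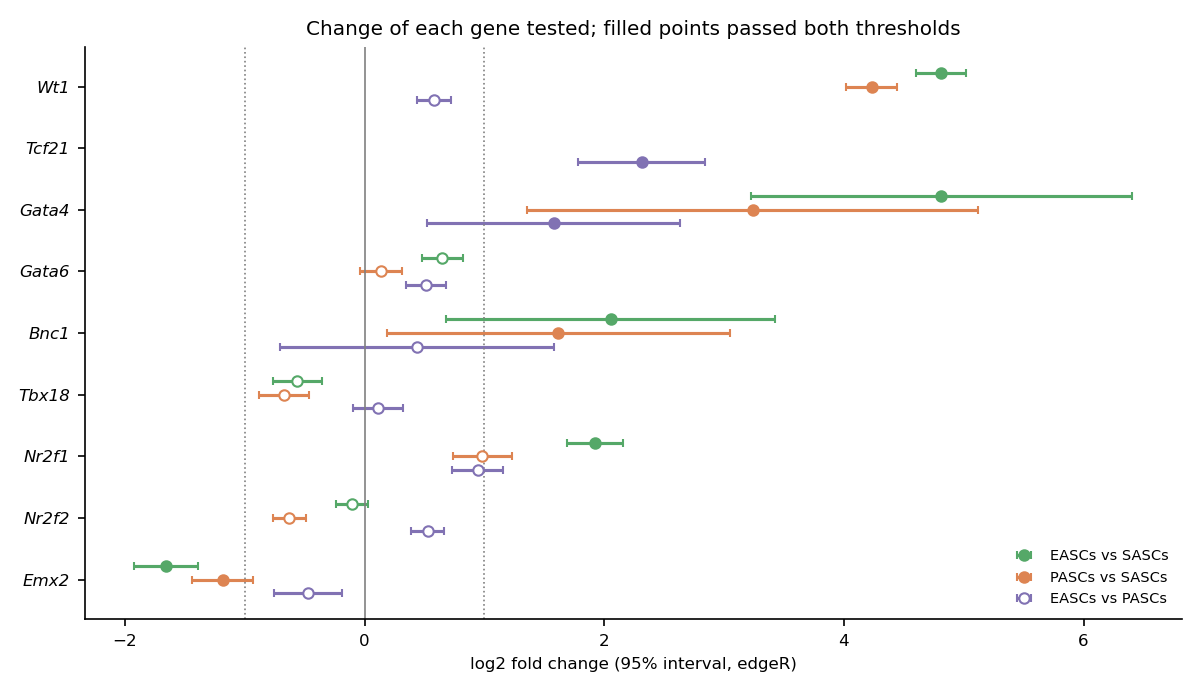
Log2 fold change (x axis) of the 9 genes tested, with 95% intervals from edgeR, in 3 comparisons named by color. Filled points passed the fold and p thresholds, dotted lines mark a fold change of 2, and Tcf21 against SASCs is left out because SASCs had no counts. Wt1 lies at 4.81 and 4.23 against SASCs and at 0.58 between EASCs and PASCs, while Emx2 lies below 0 in every comparison.

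Per kilobase of gene model, which allows levels to be compared between genes, the order of the 10 genes changed with the depot. In SASCs, Nr2f2 at 10.0 ± 0.236 and Gata6 at 9.95 ± 0.369 CPM per kb were highest and did not differ beyond their SD, followed by Tbx18 at 5.62 ± 0.470, Emx2 at 5.08 ± 0.415, Nr2f1 at 2.501 ± 0.154, and Wt1 at 0.617 ± 0.0284. The SD ranges of Tbx18 and Emx2 also met. In PASCs, Wt1 at 11.6 ± 0.394 and Gata6 at 10.9 ± 0.793 CPM per kb led with SD ranges that met, and Nr2f2 at 6.50 ± 0.699 came next. In EASCs, Wt1 led with 17.3 ± 0.677 CPM per kb, then Gata6 with 15.6 ± 0.522, and Nr2f1 at 9.54 ± 0.769 and Nr2f2 at 9.34 ± 0.383 did not differ beyond their SD. Tcf21, at 5.94 ± 0.205 CPM per kb in EASCs and 1.20 ± 0.546 in PASCs, came after Nr2f2 in EASCs and after Emx2 in PASCs. Gata4, Bnc1, and Lhx9 had means of at most 0.276 CPM per kb in every group. Wt1 thus ranked below 5 of the other genes in SASCs and above all of them in both visceral groups.

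Neighbouring genes that overlap the 10 genes or start within 1000 bp on the opposite strand were examined, a choice made after values were seen, because the use of strand in counting is not given in the sources used here. LOC684998 (chr2:5579881-5633869, plus strand) begins 13 bp from the start of Nr2f1 and shares 14 bases with it. Its counts were 23, 10, and 22 in SASCs 1 to 3, 35, 56, and 32 in PASCs 1 to 3, and 102, 127, and 141 in EASCs 1 to 3. As for Nr2f1, EASCs were highest and SASCs lowest without overlap, and LOC684998 rose 6.87-fold in EASCs (log2 fold change 2.78, SE 0.283, adjusted p = 1.64e-09), 2.25-fold in PASCs (log2 fold change 1.17, SE 0.315, adjusted p = 0.00186), and 3.05-fold from PASCs to EASCs (log2 fold change 1.61, SE 0.252, adjusted p = 1.16e-05). LOC103691392 (chr1:280578592-280633867, minus strand) begins 71 bp from the start of Emx2 with a gap of 70 bases between them. Its counts were 301, 209, and 238 in SASCs 1 to 3, 105, 85, and 53 in PASCs 1 to 3, and 64, 57, and 55 in EASCs 1 to 3, highest in SASCs as for Emx2. It fell 4.14-fold in EASCs (log2 fold change -2.05, SE 0.170, adjusted p = 2.52e-11) and 3.06-fold in PASCs (log2 fold change -1.61, SE 0.163, adjusted p = 1.32e-09). The difference between EASCs and PASCs did not pass (log2 fold change -0.44, SE 0.188, adjusted p = 0.0820).

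The gene LOC102553329 (chr1:131459454-131690117, plus strand), whose span overlaps that of Nr2f2, had counts of 140, 129, and 134 in SASCs 1 to 3, 41, 38, and 35 in PASCs 1 to 3, and 45, 61, and 46 in EASCs 1 to 3. It fell 2.61-fold in EASCs (log2 fold change -1.39, SE 0.204, adjusted p = 1.11e-06), where Nr2f2 did not pass the test, and 3.50-fold in PASCs (log2 fold change -1.81, SE 0.213, adjusted p = 2.47e-08). Its counts of 35 to 140 per sample were small beside the 1125 to 2380 of Nr2f2. LOC102548615, which begins 497 bp from Gata4, and Vom2r6, whose annotated span covers Tcf21, had 0 counts in all 9 samples. Reads from overlapping stretches could have been counted for either gene.

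**Figure D3:**
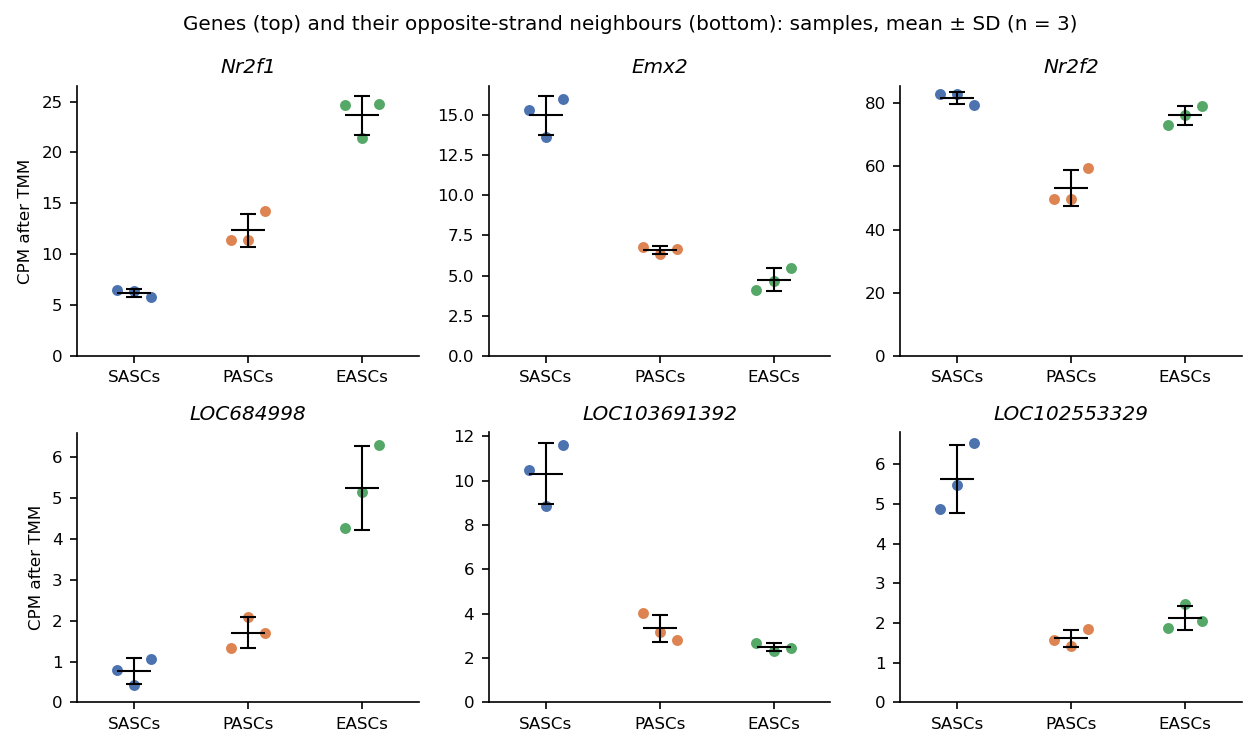
Levels in CPM after TMM (y axis, linear from 0) of Nr2f1, Emx2, and Nr2f2 (top) and of the opposite-strand gene beside or across each one (bottom), by group (x axis). Points are samples and bars the mean ± SD of 3 samples. LOC684998 has the group order of Nr2f1. LOC103691392 is highest in SASCs as for Emx2, but its difference between EASCs and PASCs did not pass the test. LOC102553329 is lower in both visceral groups than in SASCs.

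For each gene tested, the 3 genes with the nearest pattern were taken as those with the smallest root mean square difference of centred log2 CPM over the 9 samples, where the values of all genes in a sample come from the same library. These were Stac2, Xkr5, and Rasl12 for Wt1, at 0.18 to 0.20. For the genes highest in EASCs they were Olr1, Cnn1, and Gjb2 for Tcf21, at 0.40 to 0.70, LOC502940, Ntf4, and Aard for Gata4, at 0.26 to 0.37, Zswim6, Arhgap29, and Mov10 for Gata6, at 0.067 to 0.072, and Col4a5, Mfge8, and Akap2 for Nr2f1, at 0.072 to 0.12. For the others they were LOC102554561, Hhat, and Leprel1 for Bnc1, at 0.44 to 0.47, Zfand6, Ip6k2, and MGC116121 for Tbx18, at 0.080 to 0.084, N4bp1, Col4a2, and Soat1 for Nr2f2, at 0.060 to 0.070, and Vps13a, Kcnd1, and Ebf1 for Emx2, at 0.076 to 0.11. The nearest patterns to Tcf21 and Bnc1 lay at larger distances than those to Gata6, Nr2f1, or Nr2f2.

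Among 11 close relatives of these genes, 7 were tested, 2 rose (Gata2 and Gata3) in each comparison with SASCs, while Bnc2, Tbx15, and Lhx2 fell in EASCs and Tbx15, Lhx2, and Msc fell in PASCs, and the median log2 fold change was -0.14 and -0.85, beside 0.01 and -0.01 over all genes. Of all genes tested, 13.6% were higher and 14.2% lower in EASCs, and 12.0% and 14.9% in PASCs, by both thresholds. Gata2, a GATA factor of blood and endothelial cells that also acts in preadipocytes, was at 0.422, 2.15, and 18.3 CPM in SASCs, PASCs, and EASCs, with log2 fold changes of 5.41 (SE 0.204, adjusted p = 7.07e-19) in EASCs and 2.34 (SE 0.265, adjusted p = 1.17e-08) in PASCs against SASCs. Gata3, known from T cells and preadipocytes, was at 0.298, 1.87, and 1.45 CPM and rose in both visceral groups. Tbx15, the T-box relative of Tbx18 known from limb and subcutaneous fat, was at 17.2, 3.48, and 1.32 CPM, and its log2 fold change was -3.70 (SE 0.182, adjusted p = 2.82e-16) in EASCs and -2.29 (SE 0.156, adjusted p = 4.10e-13) in PASCs. Bnc2, the relative of Bnc1, was at 44.7, 24.7, and 19.1 CPM, with log2 fold changes of -1.22 (SE 0.0982, adjusted p = 1.53e-11) in EASCs and -0.85 (SE 0.0961, adjusted p = 1.08e-08) in PASCs, where it stayed under the fold threshold. Lhx2, a LIM homeobox relative of Lhx9, was at 3.55, 1.19, and 1.29 CPM and fell in both. Msc, the closest relative of Tcf21, was at 1.19, 0.502, and 1.10 CPM, with 91, 36, and 78 counts over the 3 samples of a group. It fell in PASCs (log2 fold change -1.27, SE 0.466, adjusted p = 0.0181), though samples of SASCs (0.781 to 1.74 CPM) and PASCs (0.150 to 0.880 CPM) overlapped. The difference of Msc between EASCs and PASCs did not pass (adjusted p = 0.0732).

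Of 12 listed partners and cofactors, 11 were tested, with 2 higher and 1 lower past both thresholds in EASCs and 1 higher and 1 lower in PASCs (median log2 fold change 0.27 and 0.26). These counts are near the shares of all genes, 13.6% higher and 14.2% lower in EASCs and 12.0% and 14.9% in PASCs. Basp1, a corepressor that binds WT1, was at 129, 287, and 321 CPM in SASCs, PASCs, and EASCs and rose by 1.31 (SE 0.0611, adjusted p = 9.11e-17) and 1.15 (SE 0.0610, adjusted p = 1.75e-15) on the log2 scale in EASCs and PASCs. Zfpm2, the FOG2 cofactor of GATA4, was at 27.9, 44.3, and 60.6 CPM and rose in EASCs by 1.12 (SE 0.0815, adjusted p = 1.66e-12). Ldb2, a LIM domain binding cofactor, was at 3.23, 0.448, and 0.587 CPM and fell in both visceral groups. The E proteins Tcf3 and Tcf12, with which TCF21 pairs, were at 47.9, 57.4, and 58.0 CPM and 78.8, 79.0, and 71.0 CPM. Tcf3 stayed under the fold threshold, with log2 fold changes of 0.27 (SE 0.0643, adjusted p = 0.000475) in EASCs and 0.26 (SE 0.0643, adjusted p = 0.000788) in PASCs, and Tcf12 did not pass the test in either (adjusted p = 0.0579 and 0.967).

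Genes of the urogenital ridge and coelomic lineages moved in both directions. Of 26 listed, 14 were tested, with 4 higher and 5 lower in EASCs and 4 higher and 6 lower in PASCs against SASCs (median log2 fold change -0.04 and -0.10). The shares of all genes were 13.6% higher and 14.2% lower in EASCs and 12.0% and 14.9% in PASCs. Sox9, a factor of Sertoli cells and cartilage, was at 7.14, 34.5, and 47.1 CPM in SASCs, PASCs, and EASCs and rose in both visceral groups. Pax8, a kidney and thyroid factor, had 6, 53, and 65 counts over the 3 samples of a group and also rose in both. It stayed under the filter level of 0.403 CPM in SASCs and entered the test through the visceral groups. These calls of Pax8 are therefore a description. Conversely, Osr2 was at 14.5, 0.724, and 1.35 CPM, Tbx5 had 263, 1, and 5 counts, and Hand2 had 62, 9, and 4 counts in SASCs, PASCs, and EASCs, and these 3 genes of limb, heart, and palate mesenchyme fell in both visceral groups. Tbx5 and Hand2 stayed under the filter level in both visceral groups and entered the test through SASCs, so their calls are a description too. The gonadal factor Nr5a1 and the kidney factors Pax2, Lhx1, Six2, and Eya1 did not pass the filter.

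Known WT1 or GATA targets and retinoid genes numbered 15, of which 11 were tested, with 5 higher and 2 lower in EASCs and 5 higher and 3 lower in PASCs (median log2 fold change 0.42 and 0.30). Beside these stand 13.6% of all genes higher and 14.2% lower in EASCs and 12.0% and 14.9% in PASCs. Aldh1a3, which makes retinoic acid, had 1, 42, and 85 counts over the 3 samples of SASCs, PASCs, and EASCs, Bmp4, a growth factor, had 7, 54, and 87, and both rose in both visceral groups. Both stayed under the filter level in SASCs and entered the test through the visceral groups, so these calls are a description. Aldh1a2, of the same family as Aldh1a3, had 178, 29, and 229 counts. It fell in PASCs (log2 fold change -2.58, SE 0.353, adjusted p = 3.26e-07) and did not pass the test in EASCs (adjusted p = 0.162). Igfbp5, an IGF binding protein, was at 152, 0.226, and 0.882 CPM and fell in both visceral groups. Podxl, a podocyte and mesothelial surface protein activated by WT1, was at 13.6, 1.47, and 7.43 CPM and fell in PASCs, so that it did not follow the order of Wt1. Limb and body wall factors, 14 listed and 13 tested, had 0 higher and 8 lower in EASCs and 2 higher and 5 lower in PASCs (median log2 fold change -1.20 and -0.35), beside the same shares of all genes. Pitx1, the hindlimb factor, had 101, 27, and 0 counts, Tbx4 60, 0, and 1, Lmx1b 141, 0, and 9, and Meox1 97, 6, and 32 in SASCs, PASCs, and EASCs, while Pax3 had 80 counts in PASCs and 0 in the other groups. Tbx4 and Lmx1b stayed under the filter level in both visceral groups and entered the test through SASCs. Pax3 entered it through PASCs alone, so the calls of these genes are a description.

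Mesothelial markers were examined because Wt1 and Bnc1 also mark that cell type. Of 15 markers, 9 were tested, and 7 rose and 1 fell in EASCs while 8 rose and 1 fell in PASCs, against SASCs. Beside them, 13.6% of all genes tested were higher and 14.2% lower in EASCs and 12.0% and 14.9% in PASCs. Msln (mesothelin) was at 12.5, 36.2, and 38.5 CPM in SASCs, PASCs, and EASCs, Lrrn4 at 3.63, 19.6, and 36.0 CPM, Krt7 at 1.76, 126, and 61.8 CPM, Nkain4 at 0.469, 2.41, and 15.97 CPM, and Upk3b at 0.0325, 2.38, and 2.30 CPM, and each was higher in both visceral groups. Krt18 had 0, 43, and 159 counts. Krt18 and Upk3b stayed under the filter level in SASCs and entered the test through the visceral groups, so their calls are a description. Pdpn (podoplanin), which fibroblasts also express, was at 298 CPM in SASCs, 50.003 in PASCs, and 34.0 in EASCs and fell in both. The defining marker Calb2 (calretinin) was at 0 in all samples, and Krt19, Cdh1, Muc16, and Muc1 had 0 to 22 counts over the 3 samples of a group. With Pdpn included, the summed level of the list was 307 to 333 CPM in SASCs, between 243 and 246 in PASCs, and between 192 and 203 in EASCs. Without Pdpn, a sum made after the values were seen, the other 14 markers came to 20.3 to 22.1 CPM (SASCs), 194 to 195 CPM (PASCs), and 158 to 168 CPM (EASCs). The part of mesothelial cells in the values of Wt1 was not tested.

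**Figure D4:**
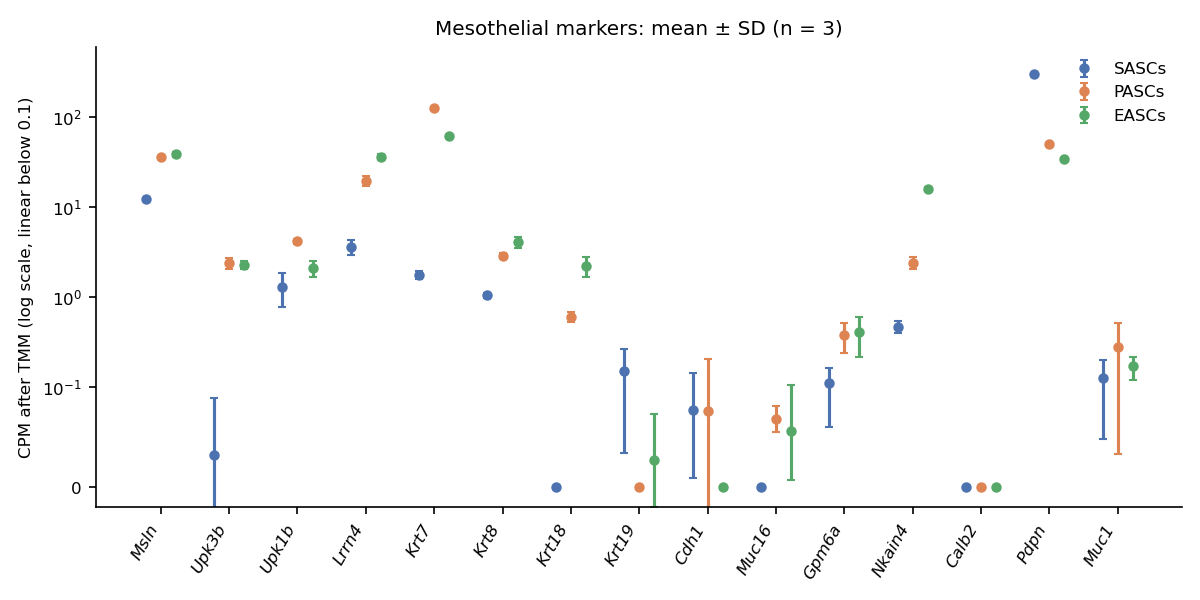
Mean level in CPM after TMM (y axis, logarithmic above 0.1 and linear below) of 15 mesothelial markers (x axis) in SASCs, PASCs, and EASCs. Bars are the SD of 3 samples and are clipped near 0. Msln, Upk3b, Lrrn4, Krt7, Krt8, Krt18, and Nkain4 lie higher in both visceral groups than in SASCs, Pdpn lies lower, and Calb2 is at 0 in all groups.

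Markers of other cells also moved with the depot. For the counts below, the shares of all genes against SASCs were 13.6% higher and 14.2% lower in EASCs and 12.0% and 14.9% in PASCs. Of 7 smooth muscle markers, 7 rose in EASCs and in PASCs, and their summed level was 196 to 209 CPM in SASCs, between 2934 and 3231 in PASCs, and between 6544 and 6904 in EASCs, the same group order as for Wt1 and Tcf21. Leukocyte markers, 7 listed and 6 tested, had 6 higher in EASCs and 4 in PASCs, with sums of 19.8 to 24.0, 42.5 to 46.6, and 75.4 to 78.0 CPM, and Cd3e at 0. Endothelial markers, 7 listed and all tested, had 1 higher and 1 lower in EASCs and 1 higher and 6 lower in PASCs, with sums of 54.9 to 56.2, 13.9 to 17.0, and 37.9 to 40.8 CPM. The endothelial counts in EASCs are near the shares of all genes. Schwann cell markers, 6 listed and 3 tested, summed to 30.6 to 34.6, 7.995 to 9.46, and 2.31 to 3.09 CPM, with Foxd3 at 0. Epithelial markers of kidney and epididymis were at 0 for 6 of 8 genes in all samples, while Epcam had 4, 1, and 46 counts and Cdh16 0, 4, and 20 counts in SASCs, PASCs, and EASCs. Of the steroidogenic and gonadal markers, 5 of 7 were in the table, and Star, which moves cholesterol into mitochondria and is a known GATA4 target, was at 2.41, 34.4, and 171 CPM and rose by 6.13 (SE 0.0846, adjusted p = 2.16e-28) and 3.82 (SE 0.0914, adjusted p = 3.11e-23) on the log2 scale. Cyp11a1 and Cyp17a1 had 0 to 7 counts over the 3 samples of a group. The part of these cell types in the values of the 10 genes was not tested.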

How the data were processed

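RNA of SASCs, PASCs, and EASCs was sequenced by the authors as paired-end reads of 150 bp. They trimmed the reads with cutadapt and FastX-Toolkit, aligned them to rn6 with TopHat, and deposited raw counts per gene. The submitters' processing notes name TopHat2 and rn5, but contig names of the table are those of rn6, so positions are read as rn6. The counting tool, the use of strand, and the treatment of reads with several matches are not given in the sources used here. The protocol gives 6 replicates in each group, and 3 per group were analysed here.

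Samples were grouped and numbered by their labels. Counts were fitted with edgeR 4.0.16 in R 4.3.3, with TMM factors of 0.740 to 1.23 and filterByExpr, in 1 model of 3 groups with no block. Adjusted p-values follow Benjamini and Hochberg over 14770 genes. Ratios were tested with scipy 1.17.1. On simulated counts for EASCs against SASCs, the fit recovered 184 (92%) of 200 genes made to change among 14770 and called 2 that were not. Total counts ranged from 17591916 to 30299032, and floors and intervals cover counting error only. Replicates differed by more than counting noise (chi-square per degree of freedom of 6.15 or more), so none was counted as a duplicate.

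The 10 genes and the lists were chosen with earlier results of these data known. All 10 were named, and so were the 3 nearest patterns for each gene. Of each list at most 5 genes were picked, those with the largest change among those that passed against SASCs. Of the picked mesenchymal progenitor, endothelial, leukocyte, Schwann cell, and smooth muscle markers, only Pdgfra and Cd34 are named. In the other lists, values of 1 picked gene are left out. Other genes of a list, such as Msln, Pdpn, Bnc2, Aldh1a2, Thy1, Cd44, Tcf3, and Tcf12, and members at or near 0 were named after their values were seen. Promoters came from RefSeq (GRCr8), and no rn6 sequence was used. Alternatives were DESeq2 1.42.0, no filter, a filter of 1 CPM, only 2 groups, a replicate block, no TMM factors (total counts), rRNA genes left out, pseudocounts of 0.5 and 2 for ratios, other thresholds, and leaving out each replicate. Total counts of genes other than rRNA and the sum of mesothelial markers other than Pdpn were added after the data were seen.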

Additional observations from a re-analysis of the deposited data

How the results depend on the processing

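Of 450 alternative values for the log2 fold changes of the 9 genes tested, 428 kept the direction and the call by both thresholds, 15 lost a call, 5 gained one, and 2 turned direction: Gata6 in PASCs against SASCs was -0.18 with total counts without TMM, and Tbx18 in EASCs against PASCs was -0.0058 without EASCs 2 (range -0.0058 to 0.21 when each replicate was left out). Neither had passed the test. Among the 428, the adjusted p alone crossed 0.05 in 5: without TMM for Gata6 in EASCs against SASCs (log2 fold change 0.25, adjusted p = 0.206) and against PASCs (0.43, adjusted p = 0.0760), and for Nr2f2 in EASCs against SASCs (-0.50, adjusted p = 0.00416, or -0.23, adjusted p = 0.00298, with total counts of genes other than rRNA), and without EASCs 1 for Emx2 in EASCs against PASCs (-0.38, adjusted p = 0.0642). With total counts without TMM the median log2 fold change of all genes was -0.39, -0.33, and -0.08 in EASCs against SASCs, PASCs against SASCs, and EASCs against PASCs, and relative to that median Gata6 in PASCs was 0.15. The number of the 10 genes called in PASCs against SASCs, 5 as reported, was 3 with the filter of 1 CPM, 3 with only the 2 groups compared, 8 with a fold change above 1.5, and 4 with no filter, without TMM, or at an adjusted p under 0.01. The number in EASCs against SASCs, 6 as reported, was 4 with the filter of 1 CPM, 5 with only the 2 groups compared, and 7 with a fold change above 1.5. The number in EASCs against PASCs, 2 as reported, was 1 with the filter of 1 CPM, 1 without TMM, 1 at an adjusted p under 0.01, and 1 to 2 when each replicate was left out. With the filter of 1 CPM Gata4 and Bnc1 were not tested, and with only the 2 groups compared Gata4 and Bnc1 in PASCs against SASCs and Bnc1 in EASCs against SASCs did not pass the filter, and the cause of the other shifts was not tested. In a fit that blocked on replicate number, the calls numbered 6, 4, and 2 in the same order of comparisons, since Bnc1 in PASCs against SASCs had a log2 fold change of 1.59 with adjusted p = 0.0582, and no other call changed. The numbers did not pair the samples: deviations of same-numbered samples correlated across genes at -0.036 to 0.031 (9 pairs), beside -0.060 to 0.069 for other pairs. Depth limits Gata4, Bnc1, and Lhx9, which had at most 27 counts in any sample.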
